A study of Mus musculus with 16 samples.

Results

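The genes described here are 40 mouse genes of the interferon response and of antigen presentation on major histocompatibility complex (MHC) class I, chosen by gene symbol from the deposited table. Rows were found for 39 of the 40 among 31053 genes, and Mx2 was not analysed here. They were measured in 16 samples of C2C12, a mouse myoblast line that fuses into multinucleated myotubes in culture. There were 4 samples each of WT myoblasts, Fam134b KO myoblasts, WT myotubes and Fam134b KO myotubes, labelled as biological replicates with no day of culture. All cells were kept in DMEM with 10% FBS, in which the myotubes formed spontaneously. Fam134b encodes an ER-phagy receptor, a membrane protein that links endoplasmic reticulum to the autophagy machinery. The KO cells received Cas9 and guide RNAs from a lentiviral vector and were drug-selected. Whether they were 1 clone, and whether WT cells carried any vector, is not given in the sources used here, so effects of the vector, of selection or of a clone cannot be told apart from those of the knockout. The p-values rest on the spread between culture samples, pooled over the 4 groups of 4, so they hold for these lines only.

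Interferons act through cell surface receptors that activate JAK kinases and STAT factors, which enter the nucleus with interferon regulatory factors and switch on interferon-stimulated genes. These genes encode sensors of viral RNA, enzymes and membrane proteins that block viruses, and much of the class I antigen presentation machinery. In that machinery the immunoproteasome cuts proteins into peptides, the Tap1-Tap2 transporter carries them into the endoplasmic reticulum, and tapasin loads them on class I heavy chains bound to beta-2-microglobulin. Healthy skeletal muscle fibres display little class I on their surface, and interferon raises it.

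The samples held between 1484750 and 3287461 reads counted on genes, with the fewest in Fam134b KO myotube replicates 4 (1484750) and 2 (1790524). These replicates also deviated most from their group mean over all tested genes. Values are normalized counts, reads divided by a factor of the sample, and 3 reads, the smallest level taken as detected, equalled a normalized count of 2.49 to 5.99. This limit covers counting error only. Fam134b itself was 207 ± 42.0 (SD, n = 4) in WT and 27.5 ± 5.49 in KO myoblasts, and 232 ± 61.6 in WT and 41.8 ± 14 in KO myotubes. Muscle markers were mostly lower in KO cells. Of 11 muscle genes tested with limma, 10 were called lower in KO myoblasts (8.50% of all genes tested were). Myf5 was higher there without being called (log2 fold change 0.68, adjusted p = 0.0955). In KO myotubes 6 were called lower (13.7% of all genes), and Myf5, Myog, Acta1, Ttn and Actc1 were not called. The summed normalized count of 11 muscle genes was 2158 to 3134 for WT and 252 to 325 for KO myoblasts, 19547 to 28996 for WT and 9419 to 13338 for KO myotubes, and Myog, a factor that starts terminal differentiation, had 0 reads in every KO myoblast sample. Other markers also differed. Of 7 fibroblast or adipogenic markers, 4 were tested, and Pparg (log2 fold change 1.84, adjusted p = 0.0366) and Col1a1 (1.10, adjusted p = 0.0294) were higher in KO myoblasts and Dcn (1.57, adjusted p = 0.0265) in KO myotubes. Pdgfra was not called at either stage (adjusted p = 0.716 and 0.696). The 7 markers summed to a normalized count of 2263 to 4596 for WT and 3036 to 11563 for KO myoblasts. In myotubes the sum was 10009 to 16321 for WT and 12295 to 24912 for KO. Col1a1 made up nearly all of it, with 3078 of a mean sum of 3088 in WT and 7156 of 7184 in KO myoblasts. Of 4 proliferation markers, Mki67 (-1.76), Top2a (-1.07) and Ccnb1 (-1.24) were lower in KO myotubes (adjusted p up to 0.00205) and 0 were called in myoblasts, where 1 had an unadjusted p under 0.05, with sums of 711 to 1201 for KO and 1668 to 2732 for WT myotubes. The part of these differences in the results below was not tested. Of 10 leukocyte markers, Ptprc, Itgam and Adgre1 had 0 reads in every sample. Others did have reads, with 4 to 6 of the 10 found in each group and 3 or 4 above 3 reads in a sample. The 10 summed to a normalized count of 9.01 to 12.9 for WT and 9.96 to 25.0 for KO myoblasts, and 10.9 to 19.9 for WT and 12.0 to 32.9 for KO myotubes.

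Promoters of some of the members are shown first, because interferon factors act through short motifs in promoters. IRF proteins bind the interferon-stimulated response element (ISRE), and STAT dimers bind the gamma-activated site (GAS). RefSeq windows from 250 bases before to 50 bases after a start site (GRCm38.p6) were found for 33 member genes and searched on both strands for the 9-letter ISRE core GAAANNGAA and for the GAS TTCNNNGAA, with overlapping matches counted. The ISRE core was present in 15 of these 33 genes (45.5%), against 9.76% of 27025 genes with a window. The GAS was present in 10 of 33 (30.3%), against 9.55%. Both motifs matched in 4 of them, and in Bst2 and Ifitm3 the matches to the different motifs overlapped. Genes with several start sites have several windows, and the letters in a window are a description, not a bound site. Below are 5 genes that were higher in KO cells (Psmb8, Irf1, Ddx58, Trim25, Tap1), 1 that was lower (Oasl2), and Isg15, the textbook interferon-stimulated gene, which was too low to be tested. Capitals mark the GAS in Psmb8 and Irf1 and the ISRE core in Ddx58, Trim25 and Isg15.
Psmb8 (chr17:34197945-34198244, plus strand): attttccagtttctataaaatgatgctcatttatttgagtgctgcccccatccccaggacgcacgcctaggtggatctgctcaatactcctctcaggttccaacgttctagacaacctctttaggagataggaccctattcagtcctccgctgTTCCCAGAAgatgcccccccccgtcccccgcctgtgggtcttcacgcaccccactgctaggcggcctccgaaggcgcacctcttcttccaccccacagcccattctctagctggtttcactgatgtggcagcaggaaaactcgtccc
Irf1 (chr11:53769764-53770063, plus strand): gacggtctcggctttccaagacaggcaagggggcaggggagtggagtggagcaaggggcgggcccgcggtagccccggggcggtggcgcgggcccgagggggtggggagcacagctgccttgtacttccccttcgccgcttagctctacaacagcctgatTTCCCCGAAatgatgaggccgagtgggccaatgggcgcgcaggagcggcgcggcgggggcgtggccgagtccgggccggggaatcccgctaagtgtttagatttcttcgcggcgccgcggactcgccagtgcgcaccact
Ddx58 (chr4:40239776-40240075, minus strand): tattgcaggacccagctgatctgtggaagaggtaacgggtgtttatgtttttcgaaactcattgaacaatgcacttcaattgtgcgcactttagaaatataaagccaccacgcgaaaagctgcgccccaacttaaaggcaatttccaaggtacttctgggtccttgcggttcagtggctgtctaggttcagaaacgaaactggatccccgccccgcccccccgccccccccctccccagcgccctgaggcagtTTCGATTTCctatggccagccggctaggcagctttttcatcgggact
Trim25 (chr11:88999153-88999452, plus strand): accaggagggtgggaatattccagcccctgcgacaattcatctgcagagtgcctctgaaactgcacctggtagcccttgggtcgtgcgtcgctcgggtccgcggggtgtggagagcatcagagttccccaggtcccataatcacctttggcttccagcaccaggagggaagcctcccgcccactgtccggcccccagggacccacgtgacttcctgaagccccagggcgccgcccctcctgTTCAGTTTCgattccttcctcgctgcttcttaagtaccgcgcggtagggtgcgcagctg
Tap1 (chr17:34187306-34187605, plus strand): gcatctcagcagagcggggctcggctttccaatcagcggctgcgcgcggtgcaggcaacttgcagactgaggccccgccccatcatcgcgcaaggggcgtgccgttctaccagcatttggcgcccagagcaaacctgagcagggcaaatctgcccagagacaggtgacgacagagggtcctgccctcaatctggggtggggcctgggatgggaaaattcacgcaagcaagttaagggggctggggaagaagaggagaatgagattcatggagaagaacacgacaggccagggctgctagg
Oasl2 (chr5:114896684-114896983, plus strand): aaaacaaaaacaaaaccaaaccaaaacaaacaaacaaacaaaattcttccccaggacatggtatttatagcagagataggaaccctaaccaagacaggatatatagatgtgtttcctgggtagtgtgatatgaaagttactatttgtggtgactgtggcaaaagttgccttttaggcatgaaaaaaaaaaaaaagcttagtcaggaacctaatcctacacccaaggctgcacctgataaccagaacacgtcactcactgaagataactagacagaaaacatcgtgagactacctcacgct
Isg15 (chr4:156200769-156201068, minus strand): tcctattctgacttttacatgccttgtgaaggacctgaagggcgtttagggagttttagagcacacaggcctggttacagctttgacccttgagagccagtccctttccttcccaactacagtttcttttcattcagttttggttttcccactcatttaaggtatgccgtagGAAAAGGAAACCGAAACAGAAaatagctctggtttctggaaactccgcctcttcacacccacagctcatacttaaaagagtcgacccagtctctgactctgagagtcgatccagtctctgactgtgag

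Among the printed windows, the GAS lay at -97 to -89 from the start site in Psmb8 and at -90 to -82 in Irf1, where the base before the start is -1. The ISRE core lay at 4 to 12 in Ddx58 and -9 to -1 in Trim25, read on the opposite strand in each. Isg15 held 3 overlapping ISRE cores between -78 and -58. Neither motif matched in the windows of Tap1 and Oasl2. The Tap1 window shares 275 of its 300 bases with that of Psmb9, which is transcribed in the opposite direction. Of the 7 members that were higher in KO cells at a stage, 6 had a window, 3 of them with the ISRE core (Ddx58, Ifih1 and Trim25) and 2 with the GAS. Among the 25 tested members with a window, 10 held the ISRE core and 10 the GAS (40% each). These 6 genes therefore do not stand out from the tested members. Of the 8 members with a window that stayed under the filter on low values, 5 held the ISRE core.

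The question behind the first comparison is how the Fam134b KO cells differed from WT cells at each stage. In KO myoblasts, Psmb8, Tap1, Ddx58 and Ifih1 were higher and Oasl2 was lower than in WT myoblasts. In KO myotubes, Psmb8, Tap1, Ddx58, Rtp4, Irf1 and Trim25 were higher and Oasl2 and Ifitm1 were lower than in WT myotubes. The remaining tested members, among them the class I chains B2m, H2-K1 and H2-D1, did not pass the test between genotypes at either stage. Limma tested the 10767 genes whose normalized count reached 10 in 4 or more of the 16 samples, and a gene was called when its adjusted p, by Benjamini-Hochberg over all of them, was under 0.05. All adjusted p-values below come from this fit. Of the 39 members, 27 were tested. Tap1 passed the filter through KO samples alone and Oasl2 through WT samples alone. Rtp4 reached 10 in 7 samples, every KO myotube sample among them, and its WT samples alone would not have passed. The counts over tested members are therefore a description.

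In myoblasts, 4 of 27 members were higher in KO, against 7.26% of all genes tested, and 1 was lower, against 8.50%. The median log2 fold change of the 27 was 0.19, and -0.01 over all genes tested. With Tap1 set at its lower bound, given below, the median of the members was also 0.19. In myotubes, 6 members were higher, against 9.74% of all genes, and 2 were lower, against 13.7%. The median was 0.03 for the members and -0.07 for all genes. Of the 27 members, 4 were called in the same direction at both stages (Psmb8, Tap1, Ddx58 and Oasl2), where 8.66% of all genes tested were. Tap1 and Oasl2 entered the test through samples of 1 genotype alone. An excess over all genes can therefore not be read from this count. Fewer expressing cells and less RNA per cell cannot be told apart in such bulk samples.

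**Figure D1:**
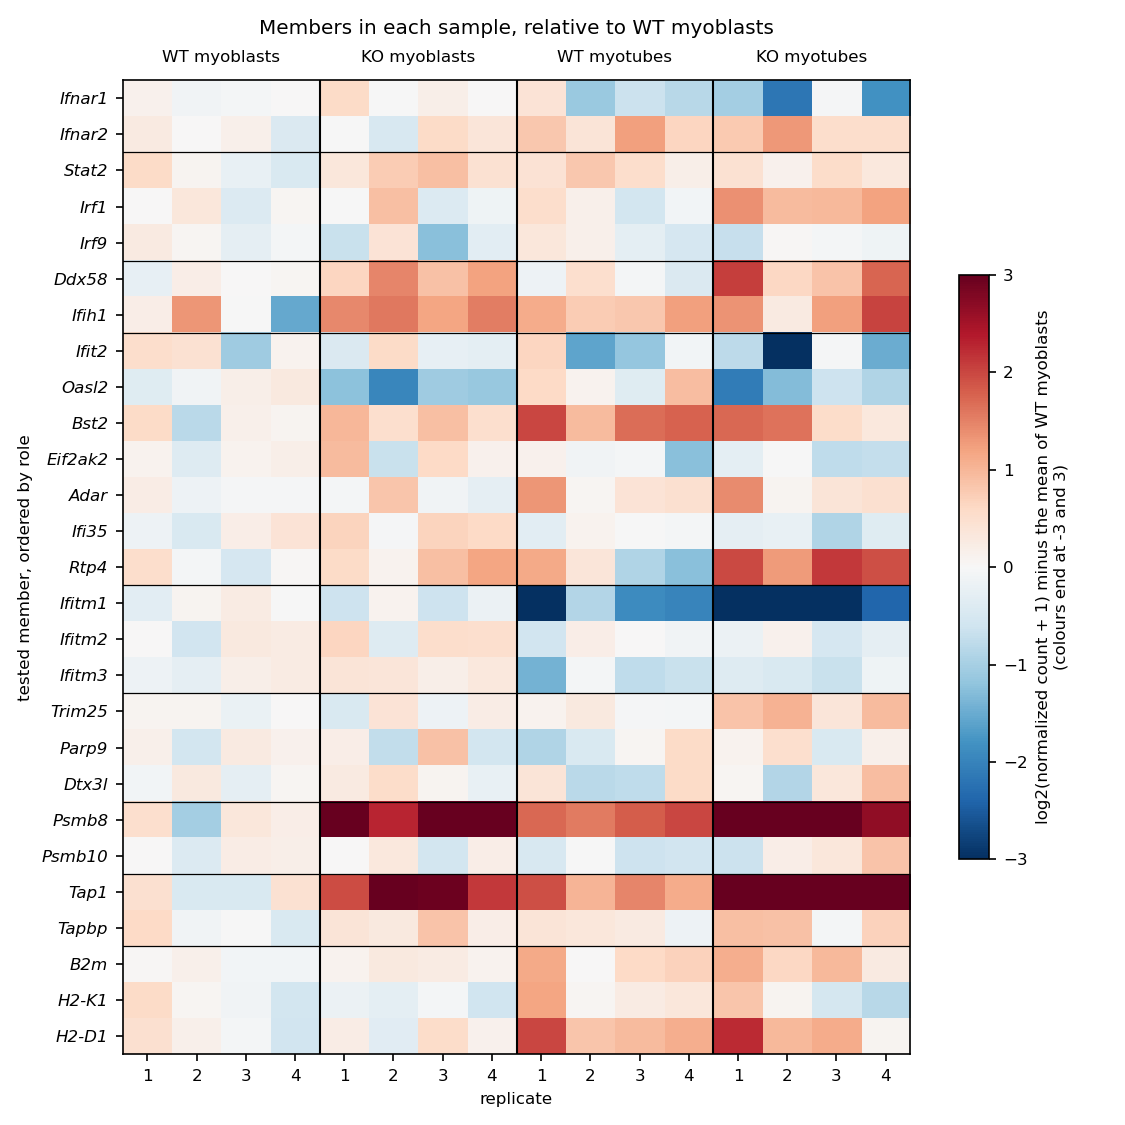
Each column is a sample and each row a tested member, ordered by role, with colour for log2(normalized count + 1) minus the mean of the 4 WT myoblast samples. The rows of Psmb8 and Tap1 are redder in KO than in WT samples at each stage, Oasl2 is bluer in KO, and Ifitm1 is blue in myotubes of both genotypes.

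The receptor for type I interferons has the subunits Ifnar1 and Ifnar2, and neither passed the test between genotypes. Ifnar1 was 16.7 ± 1.32 (SD, n = 4) in WT and 19.4 ± 4.12 in KO myoblasts, and 12.2 ± 6.95 in WT and 7.71 ± 6.02 in KO myotubes. Ifnar2 was 34.8 ± 7.13 and 38.4 ± 11.8 in the myoblasts and 60.4 ± 15.6 and 61.4 ± 17.2 in the myotubes. Without KO replicate 3 the Ifnar1 difference in myotubes passed the test (log2 fold change -1.12, adjusted p = 0.0488). The interferons themselves were almost without reads. Of 9 ligand genes (Ifnb1, Ifna1, Ifna2, Ifna4, Ifnk, Ifne, Ifng, Ifnl2 and Ifnl3), Ifnk had 1 read in each of 1 WT myoblast and 1 KO myotube sample, Ifng had 1 read in 1 KO myotube sample, and the other 7 had 0 in all 16 samples. At this depth a level up to the floor of 3 reads was not detectable.

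Among the transcription factors, Irf1, which is itself induced by interferon and drives antigen presentation genes, stood out in myotubes. Its normalized counts were 238, 181, 111 and 156 in WT myotubes and 427, 315, 320 and 382 in KO myotubes. Every KO myotube sample lay above every WT sample, and the mean was 2.11 times that of WT (log2 fold change 1.11, standard error 0.25, adjusted p = 0.00298). In myoblasts the values overlapped, with 122 to 208 in WT and 123 to 306 in KO, and the log2 fold change was 0.09 (95% interval -0.44 to 0.62, adjusted p = 0.867). The test of the difference between the stages gave an adjusted p of 0.128 for Irf1. Stat2 and Irf9, which act downstream of the type I interferon receptor, did not pass the test. Stat2 was 48.3 ± 15.9 in WT and 72.8 ± 13.1 in KO myoblasts (adjusted p = 0.0801), and 66.3 ± 12.2 and 60.3 ± 7.5 in myotubes, although without WT replicate 1 the myoblast difference passed (log2 fold change 0.81, adjusted p = 0.0248). Irf9 ranged from 9.54 to 32.4 over all samples. Irf7, which amplifies interferon production, stayed under the filter with 0 to 14 reads a sample.

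Of the cytosolic RNA sensors, Ddx58 (RIG-I) was higher in KO cells at both stages. It measured 25.8, 35.7, 31 and 32.1 in WT myoblasts and 49.0, 87.2, 58.1 and 72.6 in KO myoblasts. In myotubes it was 27.6, 44.1, 29.7 and 22.8 in WT and 135, 48.2, 56.7 and 106 in KO. The genotypes did not overlap at either stage, and KO replicates 1 and 4 were the highest of the myotubes. The mean was 2.14 times WT in myoblasts (log2 fold change 1.05, standard error 0.30, adjusted p = 0.0190) and 2.78 times in myotubes (1.36, standard error 0.30, adjusted p = 0.00230). The myoblast call was lost without WT replicate 1 (adjusted p = 0.0600), KO replicate 2 (0.0637) or KO replicate 4 (0.0559).

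Ifih1 (MDA5), which senses longer double-stranded RNA, was 8.30, 19.3, 7.01 and 1.78 in WT and 21.0, 23.2, 17.4 and 22.5 in KO myoblasts. WT replicate 2 reached into the KO range. The log2 fold change was 1.44 (standard error 0.46, adjusted p = 0.0361), and the call was lost when any of WT replicates 1, 3 and 4 or any KO replicate was left out, with adjusted p-values of 0.0562 to 0.161. Without the filter on low values the adjusted p was 0.0659. In myotubes it was 15 ± 2.56 (SD, n = 4) in WT and 19.5 ± 9.54 in KO (adjusted p = 0.743). Dhx58, the third sensor of the family, had at most 5 reads in any sample.

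**Figure D2:**
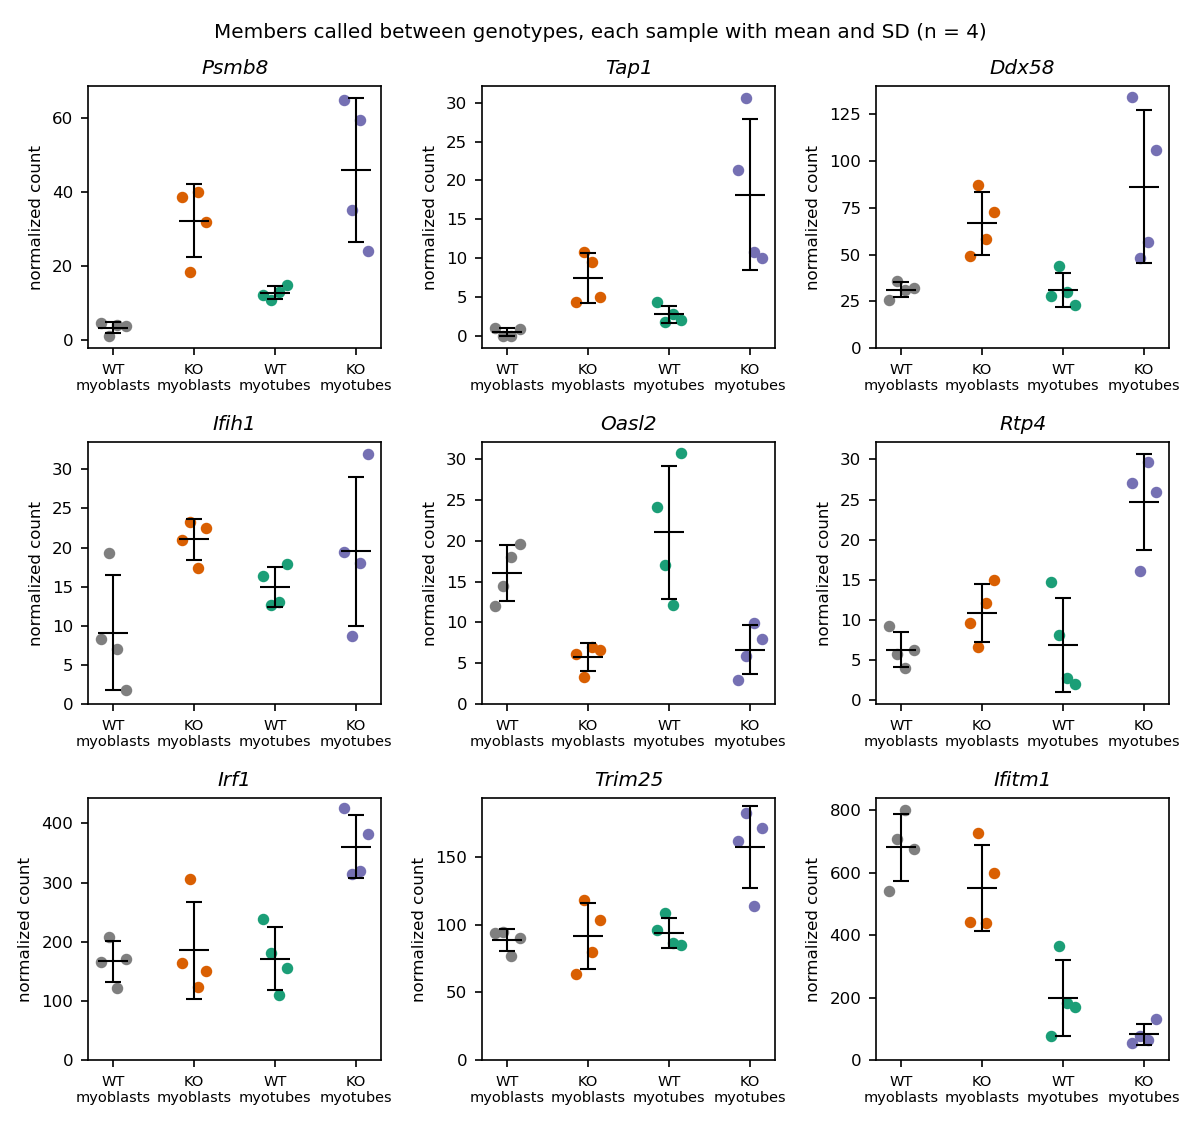
Normalized counts of the 9 members called between genotypes at a stage, with each sample as a point and the mean and SD (n = 4) in black. Psmb8, Tap1 and Ddx58 lie higher in KO at both stages and Oasl2 lower, while Rtp4, Irf1 and Trim25 separate the genotypes in myotubes.

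Of the 12 antiviral effectors with a row, Oasl2 and Rtp4 were called between genotypes. Oasl2, of the 2'-5' oligoadenylate synthetase family, was 12.0, 14.5, 18.0 and 19.6 in WT myoblasts and 6.12, 3.32, 6.94 and 6.67 in KO myoblasts. In myotubes it was 24.2, 17.1, 12.1 and 30.7 in WT and 2.90, 5.84, 9.90 and 7.99 in KO. All KO samples lay below all WT samples of their stage. The KO mean was 0.360 of WT in myoblasts (log2 fold change -1.35, standard error 0.40, adjusted p = 0.0226) and 0.317 of WT in myotubes (-1.54, standard error 0.40, adjusted p = 0.00740). KO myotube replicate 1 lay at its floor of 3 reads (2.90), and replicates 2 and 4 lay near theirs (4.38 and 5.99). KO myoblast replicate 2 was also near its floor (2.49), so the size of the difference is uncertain. The myoblast call was lost without WT replicate 3 (adjusted p = 0.0666), WT replicate 4 (0.0733) or KO replicate 2 (0.0729).

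Rtp4, an interferon-inducible chaperone of membrane receptors, was 14.7, 8.10, 2.79 and 1.98 in WT myotubes and 27.1, 16.1, 29.7 and 26.0 in KO myotubes. The lowest KO sample was above the highest WT sample. The mean was 3.59 times WT (log2 fold change 1.99, standard error 0.47, adjusted p = 0.00380). WT replicates 3 and 4 lay at or under the floor of 3 reads, 2.79 and 2.97 in these samples, so the size of this fold is uncertain. In myoblasts Rtp4 was 6.31 ± 2.17 (SD, n = 4) in WT and 10.9 ± 3.57 in KO (adjusted p = 0.369), and the stages did not pass the test of a difference (adjusted p = 0.317).

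Other effectors did not pass the test between genotypes. Bst2 (tetherin, which holds budding viruses on the cell) was 13.4 ± 5.17 in WT and 21.8 ± 4.10 in KO myoblasts (adjusted p = 0.202), and 41.8 ± 12.0 and 29.8 ± 14.4 in myotubes (adjusted p = 0.295). Ifi35 was 160 ± 42.0 and 221 ± 45.9 in myoblasts and 150 ± 17.5 and 117 ± 23.1 in myotubes, and its myoblast difference passed without KO replicate 2 (log2 fold change 0.64, adjusted p = 0.0473). Eif2ak2 (PKR, which halts translation on double-stranded RNA), Adar (which edits such RNA) and Ifit2 (which binds viral RNA) had log2 fold changes of 0.25, 0.10 and -0.10 in myoblasts and -0.12, 0.03 and -0.80 in myotubes. Rsad2, Ifit1, Ifit3, Ifi44 and Xaf1, most of them strongly induced by type I interferon in many cells, held 6 to 24 reads each in total over the 16 samples.

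The IFITM proteins block viral fusion at membranes. Ifitm1 was 76.0, 365, 181 and 171 in WT myotubes and 55.2, 77.3, 65.7 and 130 in KO myotubes. KO values reached into the WT range through the lowest WT sample, replicate 1. The KO mean was 0.413 of WT (log2 fold change -1.13, standard error 0.33, adjusted p = 0.0163). The call was lost without WT replicate 2 (log2 fold change -0.77, adjusted p = 0.0674), without KO replicate 1 (adjusted p = 0.0521) and in a fit of the 8 myotube samples alone (adjusted p = 0.0626). Ifitm2 and Ifitm3 differed by -0.08 to 0.33 on the log2 scale between genotypes and did not pass the test. Of the last 500 bases of the longest Ifitm1, Ifitm2 and Ifitm3 transcripts, 26.6%, 51.5% and 28.3% of the 31-base stretches also occur in other genes, so reads may be split between copies and the family's values are uncertain.

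Isg15, a ubiquitin-like protein, and the enzymes around it were low. Isg15 was 2.77, 3.86, 5.00 and 6.24 in WT myoblasts and 8.75, 10.8, 6.94 and 7.51 in KO myoblasts, which do not overlap, on 3 to 13 reads a sample. In myotubes the values were 3.45, 7.20, 1.86 and 4.95 in WT and 0, 5.84, 6.30 and 16 in KO. It did not reach the filter, and in a fit without the filter the adjusted p of the genotype difference came to 0.549 for myoblasts and 0.999 for myotubes. Usp18, which removes Isg15 from proteins, had 1 read in the 16 samples.

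Trim25, the ubiquitin ligase that acts on RIG-I, was 95.8, 109, 86.4 and 85.2 in WT myotubes and 162, 182, 114 and 172 in KO myotubes. The ranges did not overlap, with a mean of 1.67 times WT (log2 fold change 0.72, standard error 0.20, adjusted p = 0.0138). Without the 2 KO myotube samples with the fewest reads the log2 fold change was 0.53 (adjusted p = 0.124), and the call was lost. In myoblasts the mean was 88.9 ± 8.17 (SD, n = 4) in WT and 91.5 ± 24.4 in KO. Parp9 and Dtx3l, which form an ADP-ribosylation and ubiquitin ligase complex, differed by -0.05 to 0.26 on the log2 scale and did not pass the test. Parp14 was under the filter, with 0 to 20 reads a sample.

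In myoblasts the largest fitted change of any member was that of Psmb8, the inducible catalytic subunit beta5i of the immunoproteasome. Its normalized counts were 4.61, 0.964, 4.00 and 3.56 in WT myoblasts and 38.5, 18.3, 39.9 and 31.7 in KO myoblasts. In myotubes they were 12.1, 10.8, 13.0 and 14.9 in WT and 64.9, 35.0, 59.4 and 24 in KO. All KO samples exceeded all WT samples of the same stage, although the WT myoblast values rest on 1 to 5 reads a sample. The KO mean was 9.76 times WT in myoblasts (log2 fold change 3.0, 95% interval 2.18 to 3.81, adjusted p = 6.77e-06) and 3.61 times in myotubes (1.68, 95% interval 0.87 to 2.49, adjusted p = 0.00356). Both calls were kept under every alternative in which Psmb8 was tested, with log2 fold changes of 2.14 to 3.24 and 1.44 to 2.21. The fold in myoblasts and in myotubes did not pass the test of a difference (-1.32, standard error 0.55, adjusted p = 0.212).

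The other subunits of the immunoproteasome did not pass the test between genotypes. Psmb10 (beta2i) was 106 ± 19.3 (SD, n = 4) in WT and 107 ± 26.2 in KO myoblasts (log2 fold change 0.00, 95% interval -0.55 to 0.55), and 79.2 ± 16.5 and 127 ± 50.5 in myotubes (adjusted p = 0.105). Without KO replicate 1 the myotube difference of Psmb10 passed (log2 fold change 0.88, adjusted p = 0.0126). Psmb9 (beta1i) had 0 to 2 reads in every sample of every group. Of the constitutive subunits that these replace, Psmb5, the counterpart of Psmb8, was 145 in WT and 62.4 in KO myotubes on average (log2 fold change -1.35, standard error 0.29, adjusted p = 0.00165). Psmb7, the counterpart of Psmb10, was 471 and 289 (-0.89, standard error 0.32, adjusted p = 0.0483). In myoblasts none of Psmb5, Psmb6 and Psmb7 passed the test, with log2 fold changes of -0.21 to 0.14. Within a sample, Psmb8 counts were 0.617% to 3.13% of those of Psmb5 in WT myoblasts and 9.24% to 34.1% in KO myoblasts. In myotubes the shares were 6.78% to 10.1% in WT and 42.1% to 100% in KO. Psmb10 was 25.4% to 37.7% of Psmb7 in WT and 18.0% to 47.4% in KO myoblasts, and 12.5% to 28.5% in WT and 15.8% to 198% in KO myotubes, overlapping at both stages. Psmb9 was at most 0.0835% of Psmb6 in any sample. These shares are of counts and not of protein.

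Among the peptide loading genes, Tap1 was called and Tap2 and Tapbp were not. Tap1, a chain of the peptide transporter, was 0.923, 0, 0 and 0.891 in WT myoblasts and 4.37, 10.8, 9.54 and 5.01 in KO myoblasts. In myotubes it was 4.32, 1.80, 2.79 and 1.98 in WT and 21.3, 30.6, 10.8 and 9.99 in KO. The genotypes did not overlap at either stage, on 0 to 5 reads a sample in WT and 5 to 22 in KO. WT myoblasts were under the floor of 3 reads in each sample. Against the mean of that floor KO myoblasts were at least 2.62-fold higher, a bound that was not itself tested. The adjusted p of 0.000933 is from the limma fit to the values as they stand, where the change depends on the pseudocount. In myotubes the mean was 6.68 times WT (log2 fold change 2.27, standard error 0.50, adjusted p = 0.00225 from limma). WT replicates 2, 3 and 4 lay at or under the floor of 3 reads, 2.70, 2.79 and 2.97 in these samples. The size of this fold is therefore uncertain, and Tap1 entered the test through KO samples alone. Without the 2 KO myotube samples with the fewest reads, the log2 fold change was 2.17 (adjusted p = 0.00881).

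Tap2, the other chain of the transporter, had 0 to 3 reads in every sample. Tapbp (tapasin) was 482 ± 154 in WT and 638 ± 141 in KO myoblasts (adjusted p = 0.235), and 545 ± 84.5 and 735 ± 198 in myotubes (adjusted p = 0.223). Psmb8, Psmb9, Tap1 and Tap2 lie next to each other in the MHC region of chromosome 17 (GRCm38, GENCODE M21), with Psmb9 at chr17:34181987-34187764, Tap1 at chr17:34187553-34197225, Psmb8 at chr17:34197721-34201454 and Tap2 at chr17:34203527-34216321. Psmb9 lies on the minus strand and the others on the plus strand. Among these 4 neighbours, Psmb8 and Tap1 were called and the other 2 had too few reads to be tested.

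**Figure D3:**
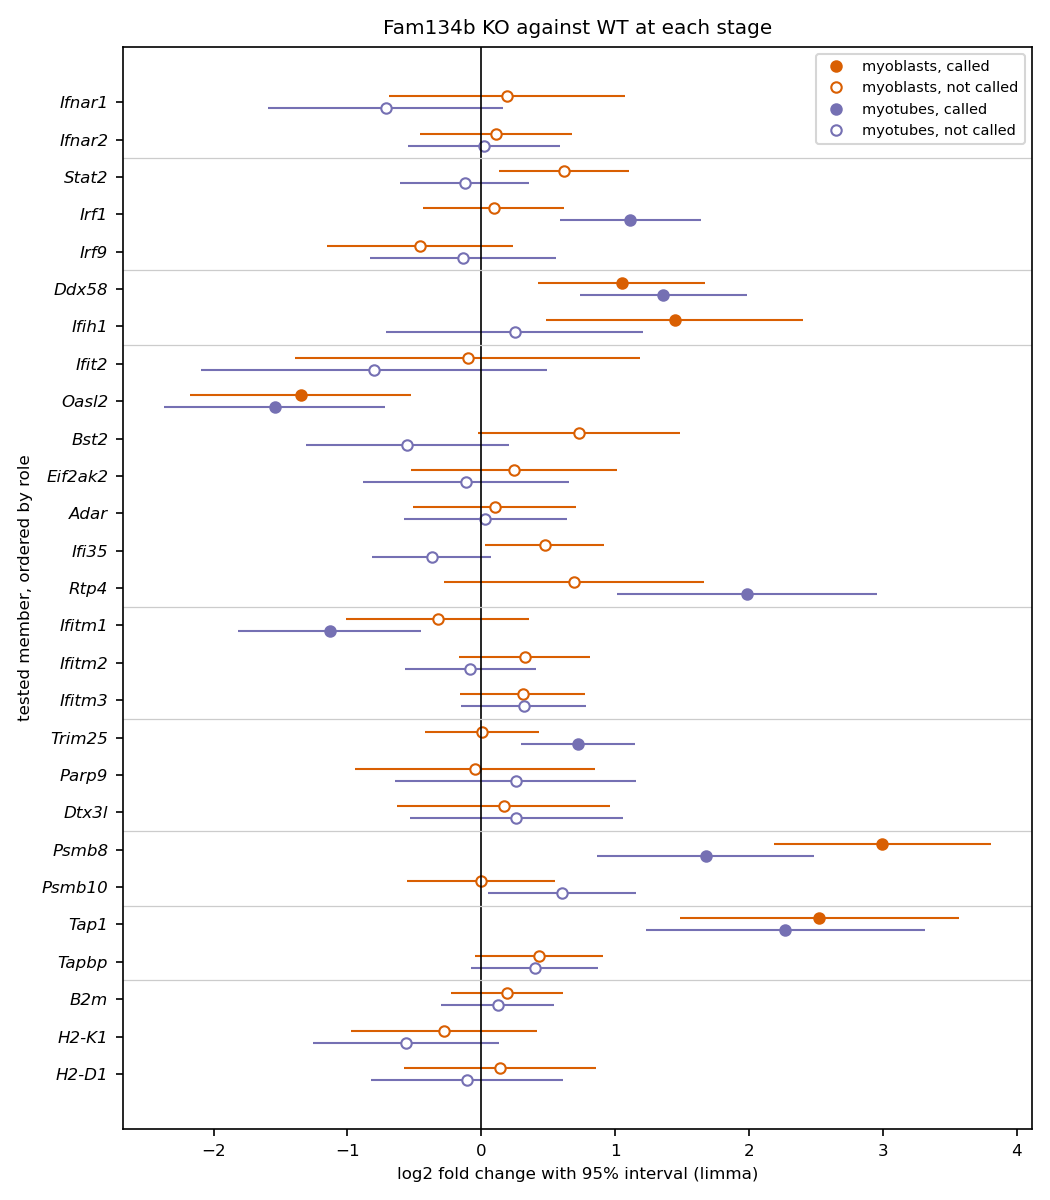
Log2 fold change of each tested member in KO against WT with its 95% interval from limma, in myoblasts and in myotubes, with filled points for calls. Psmb8 and Tap1 lie farthest to the right in myoblasts and Tap1, Rtp4 and Psmb8 in myotubes, at 2.27, 1.99 and 1.68, Oasl2 lies to the left at both stages, and the point of Tap1 in myoblasts depends on the pseudocount, since WT was under the floor.

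The class I chains themselves did not pass the test between genotypes. B2m (beta-2-microglobulin) was 592 ± 46.2 (SD, n = 4) in WT and 676 ± 46.8 in KO myoblasts, with a log2 fold change of 0.19 (95% interval -0.23 to 0.61). H2-D1 was 93.6 ± 27.4 and 102 ± 25.2 (0.14, 95% interval -0.58 to 0.85), and H2-K1 41.3 ± 13.9 and 32.9 ± 5.23 (-0.28, 95% interval -0.97 to 0.42). In myotubes the log2 fold changes were 0.12 for B2m, -0.11 for H2-D1 and -0.56 for H2-K1. C2C12 cells come from C3H mice, whose class I alleles differ from those of the reference strain, so their reads may be lost or split, and how many was not tested. Of the 31-base stretches in the last 500 bases, 24.9% of those of H2-D1 and 8.09% of those of H2-K1 also occur in other genes of the reference.

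The same members were then compared between myotubes and myoblasts, the question being how differentiation changed them in each genotype. In WT cells Psmb8, Bst2, H2-D1, B2m and Ifnar2 rose and Ifitm1 and Ifitm3 fell. In KO cells Irf1, Trim25, H2-D1 and B2m rose, and Ifitm1, Ifitm3, Ifnar1 and Ifi35 fell. Of 27 members, 5 (18.5%) were higher in WT myotubes, against 13.8% of all genes tested, and 2 (7.41%) were lower, against 9.16%. In KO myotubes 4 (14.8%) were higher, against 17.3%, and 4 (14.8%) were lower, against 16.1%. These shares lay near those of all genes. The median log2 fold change of the members was 0.01 in WT and 0.18 in KO, and -0.01 and -0.02 over all genes. The WT median was 0 with Tap1 at its bound and -0.01 with quantile normalization. These comparisons share their samples with those between the genotypes.

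Ifitm1 fell most. WT cells held 542, 709, 802 and 675 as myoblasts and 76.0 to 365 as myotubes. KO cells held 442, 726, 438 and 599 as myoblasts and 55.2 to 130 as myotubes. No myotube sample reached the myoblast range of its genotype. The log2 fold change was -1.97 in WT (standard error 0.33, adjusted p = 0.000195) and -2.78 in KO (standard error 0.33, adjusted p = 1.42e-06). Ifitm3 fell by 0.73 on the log2 scale in WT (adjusted p = 0.0227) and by 0.72 in KO (adjusted p = 0.0168). The WT call of Ifitm3 was lost without any of myoblast replicates 3 and 4 or myotube replicates 1 and 3 (adjusted p up to 0.103), and the KO call without myotube replicate 3 (0.0514).

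On the side of antigen presentation, the class I chains H2-D1 and B2m rose and H2-K1 did not pass the test. H2-D1 was 126, 100, 87.1 and 60.6 in WT myoblasts and 365, 161, 176 and 193 in WT myotubes, without overlap. In KO cells it was 106, 71.4, 133 and 98.4 in myoblasts and 434, 179, 198 and 95.9 in myotubes, where replicate 4 stayed in the myoblast range. The log2 fold change was 1.22 in WT (standard error 0.34, adjusted p = 0.0145) and 0.97 in KO (standard error 0.34, adjusted p = 0.0345). In WT the call was lost without myoblast replicate 4 (adjusted p = 0.0616) or myotube replicate 1 (0.0723). In KO it was lost without any of myoblast replicates 1, 2 and 4 or myotube replicates 1 and 3, with a log2 fold change as low as 0.59 and an adjusted p of 0.159 without myotube replicate 1, and also without the filter (adjusted p = 0.0522), with total scaling (0.0618) and in a fit of the 8 KO samples alone (0.0665).

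B2m rose by 0.62 in WT (standard error 0.20, adjusted p = 0.0319) and by 0.55 in KO (standard error 0.20, adjusted p = 0.0408) on the log2 scale, and its ranges overlapped in both. Leaving out single samples ended the WT call in 6 cases (myoblast replicates 1, 3 and 4 and myotube replicates 1, 3 and 4) and the KO call in 5 (myoblast replicates 1, 3 and 4 and myotube replicates 1 and 3). The adjusted p was then up to 0.138 in WT and 0.132 in KO. The KO call was also lost without the filter (0.0621), with total scaling (0.0913) and with quantile normalization (0.0704). H2-K1 did not pass the test in either genotype, with log2 fold changes of 0.46 in WT and 0.17 in KO.

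Psmb8 went from 3.29 ± 1.61 (SD, n = 4) in WT myoblasts to 12.7 ± 1.71 in WT myotubes without overlap (log2 fold change 1.77, standard error 0.39, adjusted p = 0.00247). In KO cells it was 32.1 ± 9.89 in myoblasts and 45.8 ± 19.5 in myotubes (0.45, 95% interval -0.36 to 1.26, adjusted p = 0.393). Bst2 rose in WT from 19.4, 6.75, 14 and 13.4 to 53.5, 25.2, 42.8 and 45.6 (log2 fold change 1.60, standard error 0.36, adjusted p = 0.00315). In KO cells Bst2 was 21.8 ± 4.10 in myoblasts and 29.8 ± 14.4 in myotubes (0.32, adjusted p = 0.524). Neither Psmb8 nor Bst2 passed the test of a difference between the genotypes (adjusted p = 0.212 and 0.191).

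The remaining changes were on the side of receptors and signalling. Ifnar2 rose by 0.77 in WT (standard error 0.27, adjusted p = 0.0459), a call lost without any of 6 single samples (myoblast replicates 2, 3 and 4 and myotube replicates 1, 3 and 4), without the filter, and with total scaling or quantile normalization (adjusted p up to 0.156). In KO cells Irf1 rose by 1.03 (standard error 0.25, adjusted p = 0.00354) and Trim25 by 0.80 (standard error 0.20, adjusted p = 0.00493). Ifi35 went from 248, 153, 247 and 237 to 130, 133, 82.8 and 122 without overlap (log2 fold change -0.91, standard error 0.21, adjusted p = 0.00249). Ifnar1 fell in KO cells (-1.45, standard error 0.42, adjusted p = 0.0118) on 2 to 18 reads a sample in myotubes. Without the 2 KO myotube samples with the fewest reads, the calls of Ifnar1 (log2 fold change -0.72, adjusted p = 0.185) and Trim25 (0.61, adjusted p = 0.0597) were lost.

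**Figure D4:**
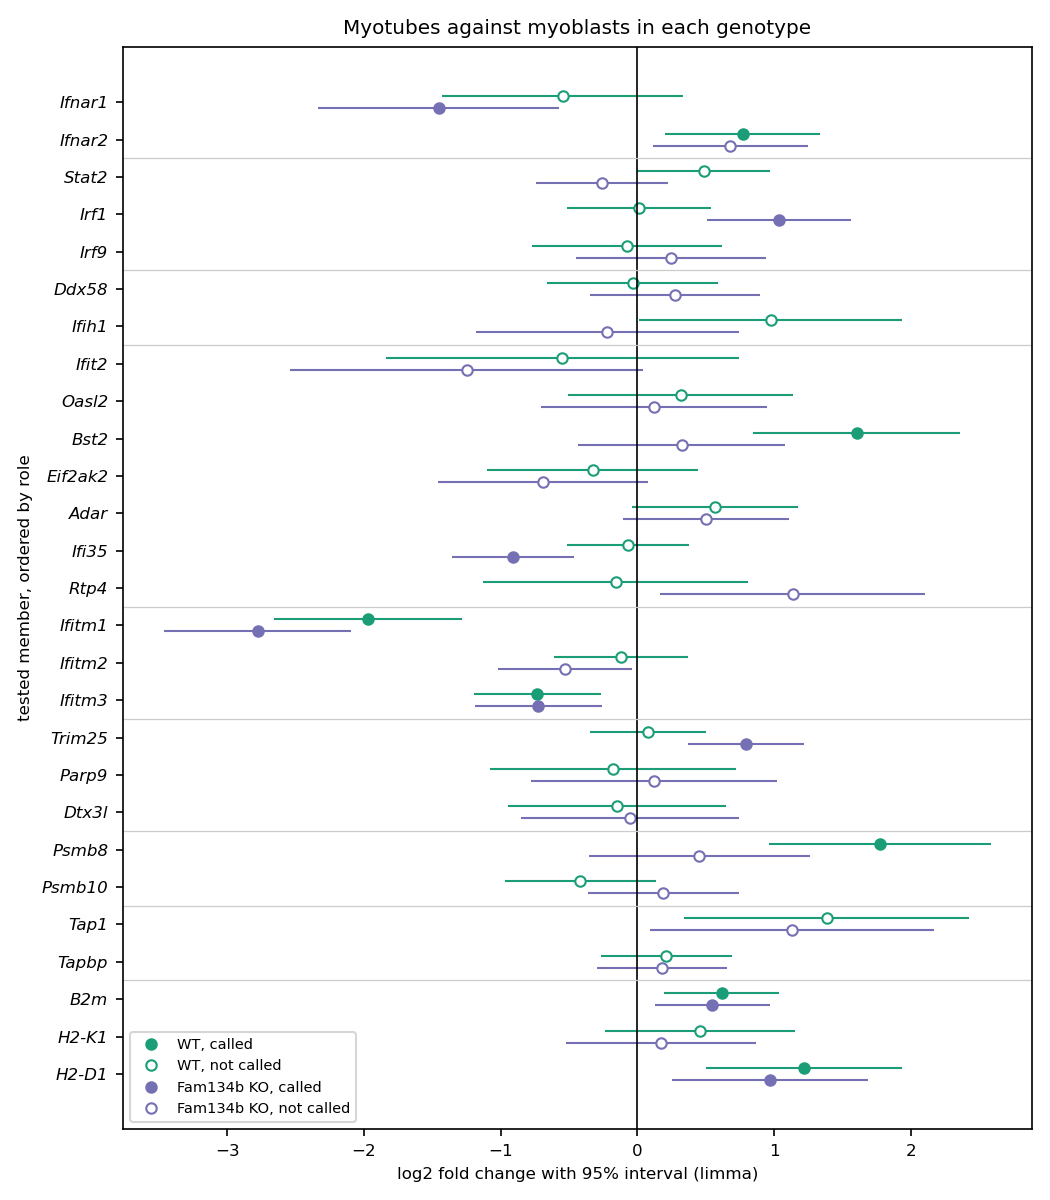
Log2 fold change of each tested member in myotubes against myoblasts with its 95% interval from limma, in WT and in Fam134b KO cells, with filled points for calls. Ifitm1 lies farthest to the left at -1.97 and -2.78, and B2m, H2-D1 and Ifitm3 are filled in both genotypes.

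Whether differentiation changed a member differently in the 2 genotypes was tested as the interaction. Limma called 0 of 27 members, where 1.97% of all genes tested had a more positive change in KO and 1.48% a more negative one. At an unadjusted p under 0.05 there were 6 members. Irf1 (1.02, standard error 0.36) and Trim25 (0.72, standard error 0.29) had a more positive value in KO, and Psmb8 (-1.32, standard error 0.55), Bst2 (-1.28, standard error 0.51), Ifi35 (-0.84, standard error 0.30) and Stat2 (-0.74, standard error 0.33) a more negative one, with adjusted p-values of 0.128 to 0.243. Limma voom on the recovered reads called 0 members, limma with sample weights called 4, and leaving out KO myoblast replicate 2 called Irf1 (1.29, adjusted p = 0.0211). That replicate stood apart in Ifi35 and Ifitm2, and without it the fall of Ifitm2 (-0.77, adjusted p = 0.0105) and of Eif2ak2 (-1.0, adjusted p = 0.0416) from KO myoblasts to KO myotubes passed the test.

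A wider list of 120 pathway genes, none of them members, had rows for 116, of which 55 were tested. In myoblasts 10 of the 55 (18.2%) were higher in KO, against 7.26% of all genes tested, and 1 (1.82%) was lower, against 8.50%, with a median log2 fold change of 0.43 against -0.01 over all genes. In myotubes 7 (12.7%) were higher, against 9.74%, and 8 (14.5%) lower, against 13.7%, with a median of -0.09 against -0.07, so these shares lay near those of all genes. By rule the 2 called genes with the largest changes in each direction are named. In myoblasts these were Sp100, a nuclear body protein with near copies in the mouse genome that make its counts uncertain (log2 fold change 2.50, standard error 0.75, adjusted p = 0.0250), and Lgals9, a galectin (1.77, standard error 0.19, adjusted p = 3.08e-07), on the higher side, and Ifi47, an interferon-inducible GTPase (-1.23, standard error 0.37, adjusted p = 0.0268), on the lower side. In myotubes they were Lgals9 (1.25, adjusted p = 5.38e-05) and Jak2, a kinase of cytokine receptors (1.21, adjusted p = 0.000285), and Ifi47 (-1.94, adjusted p = 0.000725) and Tdrd7 (-1.69, adjusted p = 0.0342).

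By role, of 10 tested genes for other receptors and JAK-STAT signalling, Jak1 and Jak2 were higher in KO at both stages. Over all genes tested, 7.26% were higher in KO myoblasts and 9.74% in KO myotubes. Ifngr2, a chain of the interferon gamma receptor, was lower in KO myotubes, as were 13.7% of all genes. It measured 33.4 ± 8.53 (SD, n = 4) in KO against 63.9 ± 11.8 in WT (log2 fold change -0.93, standard error 0.23, adjusted p = 0.00559 from limma). Ifngr1, the other chain, was 21.5 ± 11.1 in WT and 23.9 ± 5.56 in KO myoblasts and 54.4 ± 29.4 and 78.8 ± 44.9 in myotubes. Ifnlr1 had 0 reads in all samples, and Il10rb, its partner in the lambda receptor, was 17.9 ± 1.95 and 30.2 ± 5.43 in myoblasts and 31.9 ± 11.5 and 17.5 ± 7.19 in myotubes without passing the test. Of 9 tested nucleic acid sensing genes, 1 was higher in KO myoblasts, and in KO myotubes 1 was higher and 2 were lower, counts too small to set against the shares of all genes. Of 23 other tested interferon-stimulated genes, 6 (26.1%) were higher and 1 (4.35%) lower in KO myoblasts, against 7.26% and 8.50% of all genes. In KO myotubes 2 (8.70%) were higher and 3 (13.0%) lower, near the 9.74% and 13.7% of all genes. Of 9 further class I genes, 0 were called in myoblasts, where 1 had an unadjusted p under 0.05 in limma. Calr alone, a chaperone of the loading complex, was higher in KO myotubes, where 9.74% of all genes were. The single class II gene tested, H2-DMa, was higher in KO at both stages.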

How the data were processed

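RNA from 16 C2C12 samples was sequenced as single-end digital mRNA libraries. According to the labels and methods, the authors cleaned the reads with bbduk, aligned them with STAR 2.6.0a (build mm10) and counted them on genes with HTSeq. The deposited values are the log2 of a normalized count plus 1. Taken out of the log, 100% of them were whole multiples of 1 step per sample (tolerance 0.01), which gave the reads per gene. The tool used for normalization is not given in the sources used here. Groups were read from the sample titles, since the genotype field says unknown.

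The 10767 genes whose normalized count reached 10 in 4 or more of 16 samples were fitted with limma 3.58.1 in R 4.3.3 (4 group means, moderated variances with a trend, Benjamini-Hochberg). The planned design named linear normalized counts, and since the table holds their log2 values no further log was taken. The procedure was tested on simulated data. Positions and shared 31-base stretches came from GENCODE M21 and promoters from RefSeq, both on GRCm38.

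Every member is accounted for by role, and members called between genotypes have full statistics. Pathway genes named are the ligands and receptors, and the 2 most positive and 2 most negative called genes in each comparison of genotypes. The proteasome counterparts, Jak1, Calr, H2-DMa and the markers given by name were named after their values were seen. The members and lists were chosen with earlier results of these data known. The alternatives used other pseudocounts (0.5, 5), other filters (none, or a minimum of 50), other scalings (total, quantile, median-ratio), a replicate block, fits of the compared samples alone, sample weights, voom on recovered reads, stricter calls, and each sample left out. Leaving out the 2 Fam134b KO myotube samples with the fewest reads was chosen after seeing the data.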

Additional observations from a re-analysis of the deposited data

Results flagged for a closer look

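In 108 groups of 4 samples (27 tested members, 4 groups), 1 sample lay far from the other 3 in 4 cases (3.70% of the groups), judged by the gap to its nearest neighbour as a share of the group's range. Chance gives about 1 such group in 20. Eif2ak2 in WT myoblasts was lowest in replicate 2, at a normalized count of 15.4 against 22 to 23.2 (gap over range 0.873). In WT myotubes it was lowest in replicate 4, at 7.93 on 8 reads against 18.9 to 22.4 (0.830). In Fam134b KO myoblasts, replicate 2 was lowest for Ifi35, at 153 against 237 to 248 (0.909), and for Ifitm2, at 1068 against 1994 to 2193 (0.868).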

How the results depend on the processing

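Of 28 called results of single members, 14 stayed at an adjusted p under 0.05 under every alternative in which the member was tested, 14 were lost under at least 1, and 0 were reversed. This leaves aside the stricter calls, of which a log2 fold change beyond 1 in size also ends the call of Ifi35 in KO differentiation (-0.91), and members too low for the minimum of 50. Of 107 uncalled results, 25 passed under at least 1 alternative and 49 changed sign under at least 1. The number of members called was 5 in KO against WT myoblasts, 8 in KO against WT myotubes, 7 in WT differentiation, 8 in KO differentiation and 0 in the interaction. An adjusted p under 0.01 gave 2 in myoblasts, 3 in WT and 4 in KO differentiation. Requiring also a log2 fold change beyond 1 in size gave 4 in WT and 3 in KO differentiation. A minimum of 50 in place of 10 left 1 in myoblasts and 4 in myotubes, since fewer members were tested. Sample weights gave 10 in myoblasts, 12 in WT differentiation and 4 in the interaction, and the cause was not tested. With single samples left out the counts ranged from 3 to 5 in myoblasts (3 without WT replicate 3, WT replicate 4, KO replicate 2 or KO replicate 4), 7 to 10 in myotubes, 3 to 8 in WT differentiation (3 without WT myoblast replicate 4 or WT myotube replicate 1), 6 to 9 in KO differentiation and 0 to 1 in the interaction. Without the 2 KO myotube samples with the fewest reads, 7 were called in KO against WT myotubes and 6 in KO differentiation. Samples with the same replicate number did not deviate together (correlation of deviations 0.0330 on average, between -0.223 and 0.369). With a replicate block the counts were 4, 8, 6, 8 and 0, and 2 calls were lost, Ifih1 in myoblasts (adjusted p = 0.0562) and Ifnar2 in WT differentiation (0.0540). Other scalings moved the median of all genes by less than 0.1 on the log2 scale. The 12 members under the filter had 1 to 101 reads in total over the 16 samples. For these, limma without the filter called 0 of 60 differences, with 7 at an unadjusted p under 0.05. At such low reads all but large differences can be missed, so these results do not show equal levels.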
